A study of Mus musculus with 22 samples.

Results

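Spinal cords of 7 mice with experimental autoimmune encephalomyelitis (EAE), mild and severe disease together, were compared with those of 3 naïve mice to ask which genes carried a larger or smaller part of the hnRNP A1 footprints in disease. The 10 anti-hnRNP A1 immunoprecipitations used here were chosen by their labels from 22 samples, the others being inputs and pooled IgG controls. EAE is a model of multiple sclerosis in which immunization against myelin brings immune cells into the cord and leads to ascending paralysis. All mice were wild-type C57Bl/6 females of matched age. EAE mice were immunized with the myelin peptide MOG(35-55) in CFA (Freund's adjuvant with mycobacteria) and given pertussis toxin, which naïve mice were not, and all EAE mice were taken 15 days after clinical onset. Age at immunization is 12 weeks by the protocol and 8 weeks by the series' design text. The clinical scores of EAE mice 1 to 7 were 2.5, 3.0, 1.5, 1.5, 2.5, 3.0 and 1.0. Each mouse gave 1 library, so the spread within a group is between mice.

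hnRNP A1 is an RNA-binding protein that coats newly made RNA in the nucleus, takes part in the choice of splice sites and in RNA export and translation, and favours sequences that hold UAG. In CLIPseq, RNA is crosslinked to protein by UV light, pulled down with an antibody to the protein and sequenced. A footprint in an intron comes mostly from RNA that is not yet spliced, while one in an exon can come from spliced or unspliced RNA. A footprint here is a stretch of the genome that contigs assembled from immunoprecipitated RNA covered, after removal of what the matched input or the IgG control covered. The deposited lists hold only positions, so a gene was described by its share, the footprints that touched its annotated span per 10000 footprints that touched any gene. A share is thus a part of a mouse's footprints, not an amount of bound RNA, and a higher share of some genes goes with a lower share of others. The RNA levels of the genes were not measured here, and in whole cord fewer cells of a type and less RNA per cell cannot be told apart.

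Naïve mice had 15442, 15742 and 16027 footprints in genes, and EAE mice 1 to 7 had 2282, 171, 13667, 8825, 29724, 602 and 22680. A single footprint was therefore worth 0.624 to 0.648 per 10000 in naïve mice but 58.5 in EAE mouse 2, 16.6 in EAE mouse 6 and 4.38 in EAE mouse 1. A gene with no footprint could still hold up to 3 of a mouse's footprints, a limit that covers counting error only, or 175.4 per 10000 in EAE mouse 2. The share of footprints that lay in genes was 90.7% ± 0.818 (SD, n = 3) in naïve and 89.6% ± 4.51 (SD, n = 7) in EAE mice, and did not differ beyond the spread between mice (exact permutation test, two-sided, p = 0.783). The part of the in-gene footprints with an intronic midpoint was 27.7% to 41.8% in naïve mice and 10.7% to 31.6% in EAE mice, with means of 35.9% ± 7.32 (SD, n = 3) and 20.96% ± 6.39 (SD, n = 7; exact permutation p = 0.0167). EAE mice 2 and 6 thus had no footprint in most genes, and where they had one it could set them far above every other mouse. Their few footprints did not go with few reads. They had 6910620 and 5117809 mapped unique reads by the study, beside 2344707 to 5497133 in naïve mice.

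Of 55450 annotated genes, 13948 held a footprint and 6731 held footprints in at least 3 mice and were ranked. In 213 of these (3.16%) every naïve mouse lay above every EAE mouse, and in 5 (0.0743%) every EAE mouse lay above every naïve mouse. The second count rests on EAE mice 2 and 6, since it was 100 without them, while the first was 224. Without EAE mouse 1 as well, the second was 344 and the first 251. Complete separation is also easier to reach with fewer mice. The ranking orders genes by the gap, the distance between the lowest mouse of the upper group and the highest mouse of the lower group. By gap the first kind began with Asic2, Nrg1, Ntm, Rbfox1 and Rora, and the second with the matrix genes Fn1 and Col1a1. No gene passed a correction over all 6731, since the smallest p that 3 against 7 mice can give is 0.00833 (exact permutation test of the mean shares, two-sided) and the smallest adjusted p was 0.283. At an unadjusted p under 0.05 this test called 535 genes (7.95%) lower in EAE and 0 higher, and the same test on ranks called 439 (6.52%) and 8 (0.119%). The count of 0 says little, since single footprints of EAE mice 2 and 6 widen the spread of the EAE shares. Fn1 and Col1a1, which separated completely, had p = 0.183 and 0.308 by the exact permutation test of the mean shares. By limma voom, which weighs the counts behind each share, no gene passed an adjusted p of 0.05 in either direction, with 72 genes lower and 37 higher in EAE at an unadjusted p under 0.05 and smallest adjusted p of 0.0562 and 0.534. The ranked genes are therefore a description of these 10 mice.

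The gap of most of the 213 genes was small. Its median was 0.601 per 10000, and 169 of the genes had a gap under 1 per 10000, which is less than 2 footprints in a naïve mouse. In 211 of them EAE mice 2 and 6 had no footprint, and in 200 EAE mice 1, 2 and 6 had none, so the comparison rested on EAE mice 3, 4, 5 and 7. In 51 of the 213, all 4 of those mice held a footprint and still lay below the naïve mice. By type, 176 were protein-coding genes, 25 long noncoding and 12 of other kinds. In 29 every footprint also touched another gene, so the gene it belonged to is uncertain.

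Asic2, a subunit of acid-sensing sodium channels of neurons (chr11:80880169-81968457, minus strand, GRCm38), had the widest gap, 15.8 per 10000. Its share was 77.1, 45.1 and 43.7 in naïve mice 1 to 3, and ranged in EAE mice from 0 over a median of 4.39 to 27.9. EAE mice 1, 2 and 6 had no Asic2 footprint, and EAE mice 4, 5 and 7, with 22, 83 and 47 footprints, came nearest to the naïve mice. On average naïve mice had 55.3 ± 18.9 (SD, n = 3), EAE mice 11.1 ± 12.8 (SD, n = 7), and the difference was -44.1, where the voom estimate was -1.65 ± 0.38 (log2, SE). These values chose the gene and are given without a test. Of its 260 naïve footprints 255 were intronic, yet among intronic footprints alone the groups overlapped in Asic2. Magi2, a synaptic scaffold with guanylate kinase and PDZ domains, had a voom estimate of -1.62 ± 0.38 (log2, SE), with 49.2, 32.4 and 19.97 per 10000 in naïve mice and at most 17.5 in EAE mice.

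Several of the first 25 genes were adhesion genes of axons and synapses. Ntm, an immunoglobulin-domain protein on the neuronal surface, had 31.7, 17.8 and 19.97 per 10000 in naïve mice and 0 to 11.4 in EAE mice, with a median of 0. In all, 4 EAE mice had no Ntm footprint, among them EAE mouse 3 with 13667 footprints in genes. Nlgn1, a postsynaptic adhesion protein, had 35.6, 15.9 and 14.4 in naïve mice and 0 to 9.70, median 6.80, in EAE mice. Kirrel3, which joins synapses through immunoglobulin domains, Tenm2, a teneurin that binds latrophilins across the synapse, and Robo1, a receptor for Slit guidance cues, had gaps of 5.22, 3.64 and 2.46 per 10000. Nearly all naïve footprints of these genes were intronic, from 50 of 55 in Robo1 to 103 of 103 in Nlgn1. Among intronic footprints alone Tenm2 and Robo1 still separated, and Ntm, Nlgn1 and Kirrel3 overlapped. Of 23 of the first 25 genes 4 still separated, these and Ccser1 and Kcnj3.

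Among the listed 52 axonal and synaptic adhesion genes, 51 were ranked and 12 lay above in naïve mice (23.5%, beside 3.16% of all ranked genes). The median difference of the list was -1.98 per 10000, beside -0.131 over all ranked genes. Its summed share was 600, 372 and 326 per 10000 in naïve mice and 99.7 to 316, median 136, in EAE mice, and the groups did not overlap. The sum holds the 12 separated genes, so it is a description and no separate support, and 326 and 316 lie close together. The genes of the list are long, with a median span of 739848 nt beside 35520 nt over all ranked genes. Of all ranked genes over 500 kb 22.3% lay above in naïve mice, near the 23.5% of the list. Among exonic footprints alone 0 of them separated in this direction (2.17% of all ranked genes did), and among intronic footprints alone 6 did (1.2% of all ranked genes).

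Stretches of Asic2 and Ntm introns that all 3 naïve mice and no EAE mouse covered are given to show what the ranking of these genes rests on. They were picked by their mice, as the longest stretch of intron or coding exon with the most naïve over EAE mice in each gene, so that their coverage is a description, and lie at chr11:81559113-81559239 and chr9:29931537-29931631, both on the minus strand (GRCm38, RefSeq sequence). They are written 5′ to 3′ on the strand of the gene with each TAG in capitals.
Asic2 intron: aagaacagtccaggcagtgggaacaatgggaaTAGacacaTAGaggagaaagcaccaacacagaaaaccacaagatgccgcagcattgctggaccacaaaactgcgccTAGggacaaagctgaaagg
Ntm intron: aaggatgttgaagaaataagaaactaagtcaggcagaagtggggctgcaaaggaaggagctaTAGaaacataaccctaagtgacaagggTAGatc
TAG stood 3 times in the first and 2 times in the second. Searched in the same way, on the gene's strand, 64.8% of 22566 footprints within 10% of the length of the first held a TAG, and 40.4% of 10404 did for the second. These footprints were exonic and intronic ones of all ranked genes together, so they are not matched to introns. Over all ranked genes, 81.9% of intronic and 40.2% of exonic naïve footprints held a TAG.

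**Figure D1:**
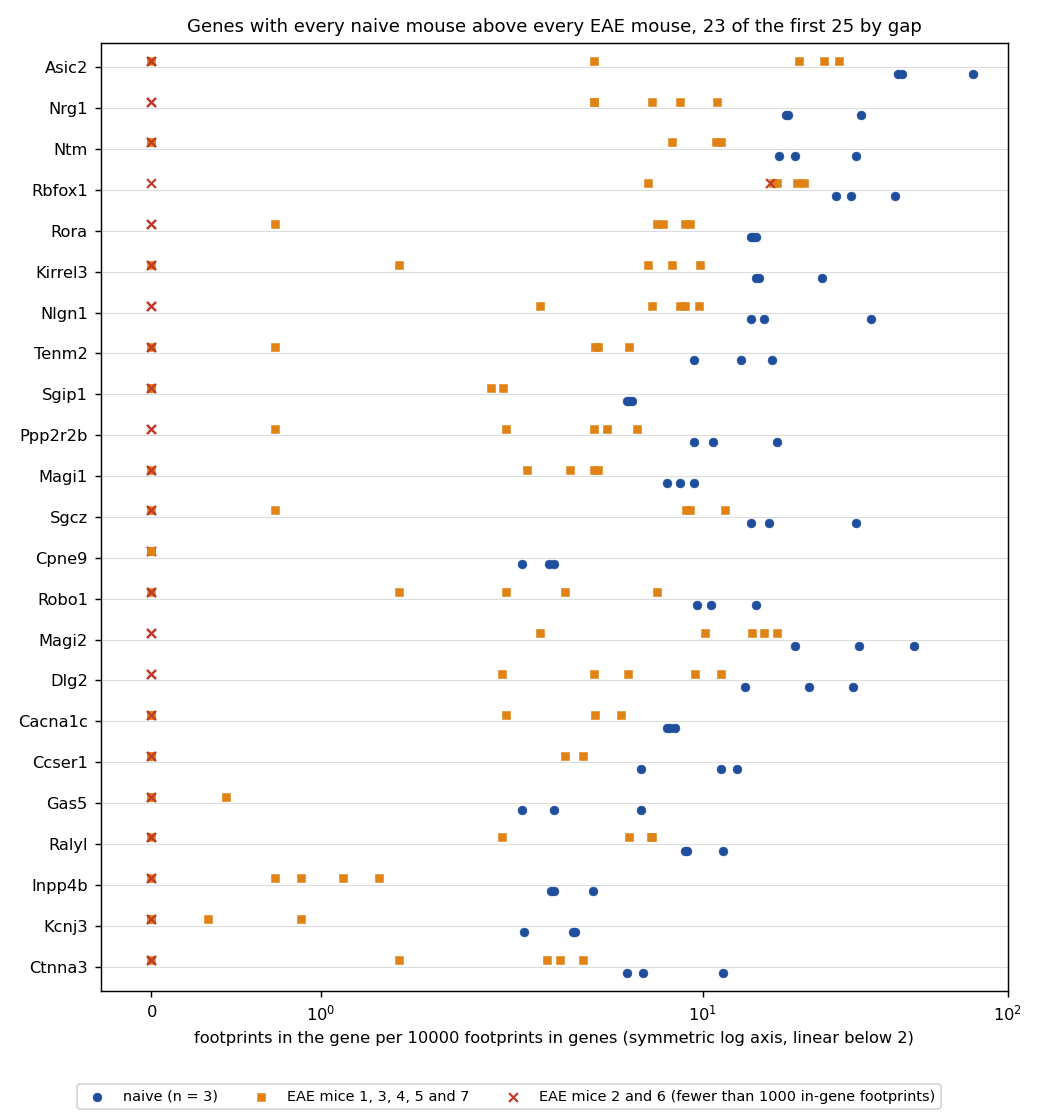
Share of footprints (per 10000 footprints in genes, symmetric log axis) of 23 of the first 25 genes by gap with every naïve mouse above every EAE mouse. Each point is 1 mouse. Naïve mice lie to the right of all EAE mice in each gene by construction, and EAE mice 2 and 6 are at 0 in all of them but Rbfox1, where EAE mouse 6 had 1 footprint.

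Signalling and scaffold genes formed another group, with lower ranks for most scaffolds. Nrg1, which encodes neuregulin ligands of the ErbB receptors, had 33.0, 19.1 and 18.7 per 10000 in naïve mice and 0 to 11.1, median 4.39, in EAE mice. Its receptor gene Erbb4, chosen after its values were seen, also separated, on 7, 11 and 3 footprints in naïve mice and at most 4 in an EAE mouse. Dlg2, a scaffold of postsynaptic receptors, had 31.1, 22.2 and 13.7 per 10000 against 0 to 11.5. Sgip1, which acts in endocytosis at synapses, had 9 footprints in each naïve mouse and 6 and 5 in EAE mice 5 and 7, with none in the other EAE mice. Ppp2r2b, a regulatory subunit of protein phosphatase 2A, Inpp4b, a phosphoinositide phosphatase, and Ctnna3, an alpha-catenin, had gaps of 3.30, 1.83 and 1.58. Sgcz, a sarcoglycan of the plasma membrane, and Ccser1 had gaps of 2.58 and 2.20. Of the 61 footprints of Ctnna3 25 touched no other gene, and of the 92 of Ppp2r2b 51 did not.

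Regulators of RNA and transcription were also among the first 25. Rbfox1, a splicing regulator of neurons and muscle that binds introns, had 42.7, 27.3 and 30.6 per 10000 in naïve mice and 0 to 21.5, median 17.0, in EAE mice. It was the only one of the first 25 genes in which EAE mouse 6 held a footprint. Among exonic footprints alone the mean of Rbfox1 was 0.43 per 10000 higher in EAE mice, as it was by 0.061 in Kirrel3 and 0.919 in Magi2, each on few footprints. Ralyl, an RNA-binding protein related to hnRNP C, had a gap of 1.94, and the nuclear receptor gene Rora, with 23 footprints in each naïve mouse, one of 5.29. Of 19 listed neuronal splicing regulators 16 were ranked and 2 lay above in naïve mice (12.5%, beside 3.16% of all ranked genes), Rbfox1 and the neuronal RNA-binding protein gene Elavl4, which held 3, 2 and 3 footprints in naïve mice and 1 in all EAE mice together. The list summed to 77.1, 59.7 and 56.8 per 10000 in naïve mice and 0 to 50.5, median 33.2, in EAE mice. Of these sums Rbfox1, which the ranking chose, held 42.7, 27.3 and 30.6 in naïve mice and up to 21.5 in EAE mice. The sum is therefore no support apart from that gene.

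Channel and receptor genes were found at lower shares. Cacna1c, the pore of L-type calcium channels, had 7.77, 7.62 and 8.11 per 10000 in naïve mice and 0 to 5.38, median 0, in EAE mice. Kcnj3, a G protein-gated potassium channel subunit, had 4, 6 and 6 footprints in naïve mice and 1 and 2 in EAE mice 5 and 7. It was the only one of the first 25 genes that separated among exonic and among intronic footprints alike. Of 41 listed genes of voltage-gated and related channels 36 were ranked and 6 lay above in naïve mice, 16.7% beside 3.16% of all ranked genes (Cacna1c, Cacna2d1, Kcnh1, Kcnn2, Kcnq3 and Dpp10). Of 40 transmitter receptor genes 32 were ranked and 4 did, 12.5% beside the same 3.16% (Gria1, Gria2, Grin3a and Grm8, all glutamate receptors). The channel and receptor lists had median spans of 290184 and 353954 nt. Of all ranked genes of 200 to 500 kb 7.29% lay above in naïve mice. The summed share of the receptor list was 141, 109 and 98.0 in naïve mice and 0 to 78.7 in EAE mice, while that of the channel list overlapped, with 118 to 179 in naïve mice and up to 133 in EAE mice. Both sums hold the separated genes of their lists. Syt1, the calcium sensor of vesicle release, was the only 1 of 33 ranked vesicle release genes above in naïve mice, and this share, 3.03%, lies near the 3.16% of all ranked genes. In none of these 4 lists of channels, receptors, vesicle release and splicing regulators did a gene lie above in EAE mice, with or without mice 2 and 6. Of all ranked genes only 0.0743% did with all mice and 1.49% without mice 2 and 6, so a count of 0 says little. The axonal and synaptic adhesion list held 1 such gene without mice 2 and 6 (1.96%).

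A smaller set lay in exons. Magi1, a scaffold related to Magi2, had 13, 12 and 15 footprints in naïve mice, 35 of these 40 exonic, and 8.42, 7.62 and 9.36 per 10000 against 0 to 4.53 in EAE mice. Cpne9, a copine that binds membranes in a calcium-dependent way (chr6:113282307-113305627), had 5, 4 and 5 footprints in naïve mice, all exonic, and none in any EAE mouse. Set against the 3 footprints over the whole group that a count of 0 allows, its pooled share was 7.71-fold lower in EAE. This ratio describes the counts that chose the gene. It allows for the counting error of the 0 only, and leaves out that of the naïve count and the spread between mice. Gas5, a long noncoding RNA that hosts small nucleolar RNAs, had 5, 4 and 10 footprints in naïve mice and 1, in EAE mouse 7, in all EAE mice. Of its 19 naïve footprints 18 were exonic. Mast1, a microtubule-associated kinase named after its values were seen, had 9, 7 and 9 exonic footprints in naïve mice and at most 8 in an EAE mouse. In all, 146 genes separated in this direction among exonic footprints (2.17%), 70 of them among the 213, and 81 among intronic footprints (1.2%), 40 of them among the 213.

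In 43 of the 213 genes no EAE mouse had a footprint, but few had many in naïve mice. After Cpne9 with 14, the most were 9 in Eng, a TGF-beta co-receptor of endothelium, and 8 in the antisense transcript 4931403E22Rik, both named after their values were seen. Fdft1, squalene synthase, had 3, 2 and 3 in naïve mice and 2 in EAE mouse 5. Of the 11 ranked genes of myelin lipid synthesis Fdft1 was the only one above in naïve mice (9.09%, beside 3.16% of all ranked genes), and Fasn, fatty acid synthase, lay the other way without EAE mice 2 and 6.

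The 213 genes were long. Their median span was 150600 nt, beside 35520 nt over all ranked genes, and 91 (42.7%) spanned more than 200 kb, beside 11.8%. The part of ranked genes with every naïve mouse above was 1.93% up to 10 kb, 1.57% from 10 to 30 kb, 1.89% from 30 to 100 kb, 3.43% from 100 to 200 kb, 7.29% from 200 to 500 kb and 22.3% over 500 kb. Their footprints were mostly intronic, 78.4% of 4174 in naïve and 77.2% of 2387 in EAE mice, where all ranked genes had 34.3% and 18.3%. The rule needs a footprint in every naïve mouse, and the median number of naïve footprints was 8 in these genes beside 3 in all ranked genes. Sums over all annotated genes carry no such condition, but hold these genes too and were formed after their length was seen, so they are given as a description with no test.

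Summed over all annotated genes, those over 500 kb held 21.02%, 16.5% and 13.8% of the in-gene footprints of naïve mice and 2.34% to 11.2%, median 6.05%, in EAE mice. Every naïve mouse lay above every EAE mouse, with means of 17.1% ± 3.64 (SD, n = 3) and 7.17% ± 3.52 (SD, n = 7). Genes of 200 to 500 kb held 13.95% to 16.3% and 3.51% to 11.9%, also without overlap. At the other end, genes up to 10 kb held 11.7% to 12.6% in naïve mice and 14.6% to 32.2% in EAE mice, and genes of 10 to 30 kb 19.1% to 19.7% and 22.0% to 37.4%, again without overlap. Genes of 30 to 100 kb held 27.0% to 29.9% in naïve mice and at least 24.0% in EAE mice, or at least 30.3% without EAE mice 2 and 6, when EAE mice lay above in this class too. Among intronic footprints alone, genes over 500 kb held 39.5% ± 7.38 in naïve and 25.3% ± 11.9 in EAE mice and the groups overlapped, with up to 38.0% in an EAE mouse and at least 33.0% in a naïve mouse. Among exonic footprints they held 4.60% ± 0.0472 and 2.68% ± 1.39, and every naïve mouse lay above every EAE mouse. EAE mouse 2 had the lowest share of genes over 500 kb, 2.34%, and 31.6% of its in-gene footprints intronic. Both values rest on only 171 footprints in genes, too few to rank it among the mice. The part of intronic footprints in the ranking of single genes was not tested.

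**Figure D2:**
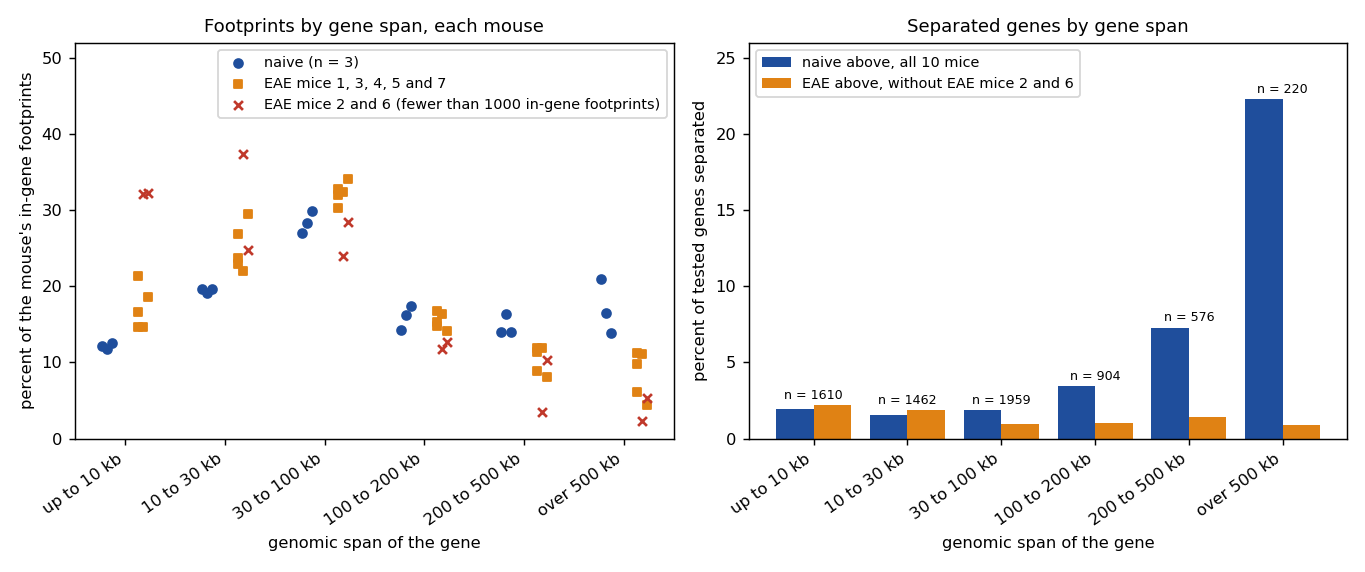
Left, percent of each mouse's in-gene footprints (vertical axis) in genes of 6 classes of genomic span (horizontal axis), 1 point a mouse. Right, percent of ranked genes in each class with every naïve mouse above every EAE mouse, or with every EAE mouse above without EAE mice 2 and 6, with the number of ranked genes as n. Naïve mice lie above all EAE mice in both classes over 200 kb, and the part of separated genes reaches 22.3% over 500 kb.

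The naïve footprints of the 213 genes were read from the genome. Intronic footprints of these genes held TAG in 84.1% of 3198 footprints, beside 81.9% of 15491 intronic footprints of all ranked genes, at a median length of 138 and 137 nt. Exonic ones held it in 42.5% of 862, beside 40.2% of 27677. The GC content was 44.0% and 44.5% in introns, and 36.5% and 42.5% of intronic bases were soft-masked repeats. Of the intronic footprints of the 213 genes 24.6% overlapped a footprint of another naïve mouse, beside 24.3% over all ranked genes. Most intronic footprints of these genes thus lay at positions that no other naïve mouse covered. Exonic ones overlapped another naïve mouse in 42.7%, beside 41.7% over all ranked genes.

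In the other direction, Fn1 and Col1a1 came first. Fn1, fibronectin of the extracellular matrix (chr1:71585520-71653200, minus strand), had 0, 6.35 and 5.62 per 10000 in naïve mice, and EAE mice ranged from 13.1 to 117 around a median of 14.55. The lowest EAE mouse lay 6.77 per 10000 above the highest naïve mouse, and EAE mouse 2 reached 117 on 2 footprints. The EAE mice with over 1000 footprints had 9 to 39 in Fn1, where naïve mice had 0, 10 and 9. The means were 3.99 ± 3.47 (SD, n = 3) and 34.9 ± 37.8 (SD, n = 7), and their difference was 30.9 with EAE mouse 2 included. The voom estimate was 2.67 ± 0.81 (log2, SE).

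Col1a1, a chain of type I collagen (chr11:94936224-94953042), had 0, 5 and 0 footprints in naïve mice and 5 to 20 in EAE mice. As a share this was 0, 3.18 and 0 against 6.06 to 292, median 8.82, per 10000. EAE mouse 2 with 5 of its 171 footprints and EAE mouse 6 with 8 of its 602 stood far above the other mice. Of the 5 listed markers of meningeal fibroblasts 4 were ranked, and their sum was 0, 4.45 and 1.87 per 10000 in naïve mice and 10.1 to 702 in EAE mice. Col1a2 had 0, 2 and 0 footprints in naïve mice and 1 to 10 in EAE mice, and Lum had none in any mouse.

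Rpl32 and Pam rested on narrower gaps. Rpl32, a protein of the large ribosomal subunit, had no footprint in naïve mice and 1 or 3 in each EAE mouse, 13 in all. Of these 6 touched no other gene. Its pooled share was 2.62-fold higher in EAE when 3 footprints are allowed in the naïve group. That ratio describes the counts that chose the gene and leaves out the counting error of the EAE count and the spread between mice. Pam, which amidates peptide hormones, had 1.94, 2.54 and 1.87 per 10000 in naïve mice and 3.36 to 58.5, median 5.29, in EAE mice. Of its 47 footprints 40 touched no other gene. In Pam EAE mice 2 and 6 had 1 footprint each, which sufficed to set them at 58.5 and 16.6. Fn1, Col1a1 and Rpl32 were also the 3 genes (0.0446%) with every EAE mouse above among exonic footprints alone, while 1 gene (0.0149%) was among intronic footprints. No EAE footprint of Fn1, Col1a1 or Rpl32 was intronic.

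EAE mice 2 and 6 held too few footprints to lie above the naïve mice in most genes. Without them, 100 genes (1.49%) had every EAE mouse above every naïve mouse and 224 (3.33%) every naïve mouse above, the 5 and the 213 among them by construction. With fewer mice more genes separate by chance too, so the 100 are a description. The 100 genes were shorter, with a median span of 20100 nt, and 10.7% of their 2976 EAE footprints were intronic. In 27 no naïve mouse had a footprint. Among genes gained in the naïve direction were more long neuronal genes, such as Fgf14, an intracellular modulator of sodium channels, Lingo2 and Lrrc4c, surface proteins with leucine-rich repeats, Adgrb3, a synaptic adhesion receptor, and Dlgap1, a postsynaptic scaffold. Lrrc4c had 16.8, 11.4 and 10.6 per 10000 in naïve mice and 0 to 5.67 in EAE mice other than mouse 2, which reached 117 on 2 footprints. In the EAE direction C3, the central protein of complement (chr17:57203970-57228136, minus strand), led the genes gained, with 2.59, 1.91 and 1.25 per 10000 in naïve mice and 13.1, 24.1, 18.1, 10.1 and 7.50 in EAE mice 1, 3, 4, 5 and 7. The naïve mice had 9 footprints together and the EAE mice 101, of which EAE mouse 2 had none and EAE mouse 6 had 2. C4b, complement component 4, had 5.18, 1.91 and 8.11 in naïve mice and 12.1 to 65.7 in the same 5 EAE mice.

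Phagocyte genes were among the 100. Csf1r, the receptor that keeps microglia and macrophages alive, had no footprint in naïve mice, 1, 8, 1, 13 and 14 in EAE mice 1, 3, 4, 5 and 7, and 1 in EAE mouse 6. Over the 7 EAE mice together its share was 7.67-fold higher than 3 footprints in the naïve group allow. Such a ratio describes the counts that placed the gene among the 100. It leaves out the counting error of the EAE count and the spread between mice. H2-Aa, a chain of MHC class II that presents antigen to T cells, had none in naïve mice and 3, 4, 1, 4 and 4. Of 17 ranked genes of the phagocyte lysosome 5 lay above in these EAE mice (29.4%, beside 1.49% of all ranked genes), and none lay below. They were the proteases Ctsb, Ctsz and Lgmn, the progranulin gene Grn and the cholesterol carrier gene Npc2. The summed share of the list was 4.53, 7.62 and 8.74 per 10000 in naïve mice and 22.5 to 117, median 43.2, in all 7 EAE mice. The sum of the complement and Fc receptor list was 5.08 to 9.36 in naïve mice and 34.0 to 87.6 in the 5 EAE mice, with 0 in EAE mouse 2 and 116 in EAE mouse 6. Of the interferon response list 6 of 24 genes were ranked.

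Other leaders of the 100 belonged to no phagocyte list. Slc4a4, a sodium bicarbonate cotransporter of astrocytes, had 1.94, 1.27 and 3.74 per 10000 in naïve mice and 6.58 to 13.6 in the 5 EAE mice. Fasn had 1.29, 1.27 and 1.25 against 3.70 to 26.3, Rrbp1, a ribosome-binding protein of the endoplasmic reticulum, 2.59, 5.08 and 5.62 against 7.94 to 17.5, and Tns3, a tensin of focal adhesions, 0 against 2.21 to 4.53. Gvin1 and Gm4070, of a family of very large interferon-inducible GTPases with near-identical copies, had 105 EAE footprints each. Gm20663 overlaps Gm4070 on the opposite strand, and 2 of its 106 footprints touched no other gene, so that which of these genes the footprints belong to is uncertain. Gm49339 had no footprint that it did not share with a neighbouring gene. Of 37 ranked ribosomal protein genes Rpl32, Rpl28 and Rpl10a lay above (8.11%, beside 1.49% of all ranked genes), and their list summed to 28.5, 21.6 and 39.9 per 10000 in naïve mice and 39.4 to 292 in EAE mice, which overlapped.

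Coding stretches that EAE mice and no naïve mouse covered are given for 4 of these genes, picked by the same rule. They lie at chr1:71643014-71643149 (Fn1, exon 7), chr11:94947923-94947990 (Col1a1, exon 40, plus strand), chr17:57218459-57218615 (C3, exon 21) and chr17:34284362-34284471 (H2-Aa, exon 2), the others on the minus strand, with exons counted in the first transcript of each gene in GENCODE. Col1a1 was covered in EAE mice 1, 3, 5, 6 and 7, Fn1 and C3 in 3, 4, 5 and 7 and H2-Aa in 1, 3, 5 and 7.
Fn1 coding exon: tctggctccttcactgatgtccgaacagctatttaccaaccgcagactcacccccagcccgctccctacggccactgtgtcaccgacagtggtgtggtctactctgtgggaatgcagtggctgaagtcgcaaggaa
Col1a1 coding exon: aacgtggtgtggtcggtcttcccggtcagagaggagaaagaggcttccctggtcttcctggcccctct
C3 coding exon: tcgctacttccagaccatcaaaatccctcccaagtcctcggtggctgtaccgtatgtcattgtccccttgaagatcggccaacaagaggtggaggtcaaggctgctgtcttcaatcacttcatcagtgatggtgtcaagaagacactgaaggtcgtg
H2-Aa coding exon: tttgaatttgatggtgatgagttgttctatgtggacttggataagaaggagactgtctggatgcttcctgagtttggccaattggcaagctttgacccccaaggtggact
None of these 4 stretches holds a TAG. The rule also gave a coding stretch of Fasn and an intronic one of Pam, covered by 4 EAE mice each, with 1 TAG each. A coding stretch of Mast1, covered by 2 naïve mice and no EAE mouse, held none. The stretch of Pam was also covered in naïve mouse 1. Of footprints of like length 69.2%, 29.0%, 73.6% and 54.3% held a TAG for the 4 printed stretches, in the order given. These too were exonic and intronic footprints together, and exonic ones held a TAG less often, so they are not matched to coding exons.

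**Figure D3:**
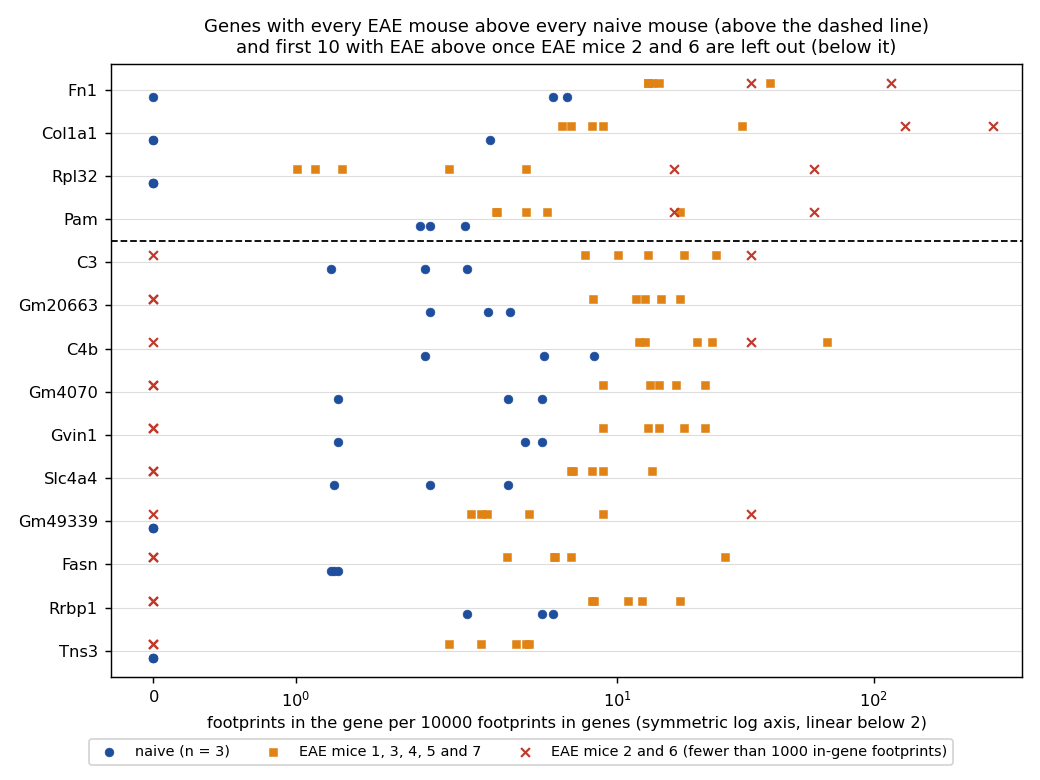
Share of footprints (per 10000 footprints in genes, symmetric log axis) of 4 of the 5 genes with every EAE mouse above every naïve mouse (above the dashed line) and of the first 10 gained without EAE mice 2 and 6 (below it). Each point is 1 mouse. A single footprint sets EAE mouse 2 at 58.5 and EAE mouse 6 at 16.6, and no footprint sets them at 0.

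Marker genes of the cells of the cord were set beside these results. Markers of microglia and macrophages summed to 3.24, 4.45 and 3.74 per 10000 in naïve mice and 17.0 to 117, median 19.9, in EAE mice, without overlap. Of these 15 genes 12 were ranked, and 1 lay above in the 5 deeper EAE mice, Csf1r (8.33%, beside 1.49% of all ranked genes). In naïve mice 1 lay above, Cx3cr1 (8.33%, beside 3.16%). Cx3cr1, the fractalkine receptor of resident microglia, had 2, 5 and 3 naïve footprints and 5 in EAE mice. P2ry12, another gene of resident microglia, had 3, 0 and 2 footprints in naïve mice and 2 and 3 in EAE mice 4 and 5, and Tmem119 and Trem2 had 2 and 3 in all and Aif1 none. Neuronal markers summed to 23.5 to 30.4 in naïve mice and 0 to 24.2 in EAE mice, which overlapped, and 2 of 12 lay above in naïve mice (16.7%, beside 3.16% of all ranked genes), Syt1 and Elavl4. Oligodendrocyte markers summed to 12.1 to 29.95 and 22.0 to 58.5. Opalin was the only 1 of 10 ranked genes to separate (10%, beside 3.16% of all ranked genes), on 1 footprint in each naïve mouse. Astrocyte markers summed to 6.99 to 19.3 and 0 to 57.0, and 0 of 10 separated, a count near the 3.16% and 0.0743% of all ranked genes. Of the 15 lymphocyte markers only Ighm held a footprint, 3 in all, and of the 9 neutrophil markers none did, so neither list was ranked. The part of cell composition in the ranking was not tested.

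**Figure D4:**
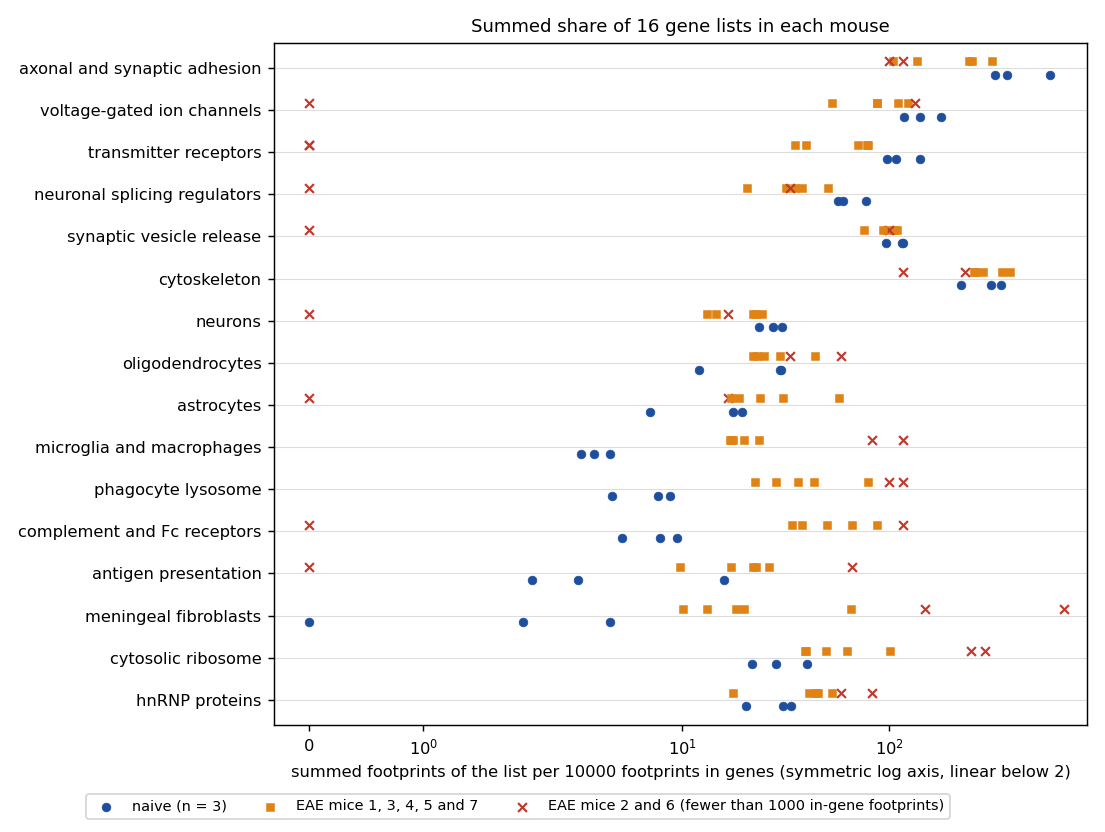
Summed share of footprints (per 10000 footprints in genes, symmetric log axis) of 16 gene lists in each mouse, 1 point a mouse. Naïve mice lie above all EAE mice for axonal and synaptic adhesion, transmitter receptors and neuronal splicing regulators, and below all EAE mice for markers of microglia and macrophages, phagocyte lysosome genes and markers of meningeal fibroblasts. Each sum holds any genes of its list that separated singly, so it is a description and no separate support.

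Most lists of general cell functions held few separated genes. Of all ranked genes too only 3.16% lay above in naïve mice and 0.0743% in EAE mice. Without EAE mice 2 and 6 these shares were 3.33% and 1.49%, so a count of 0 or 1 in a list says little. None of 38 ranked cytoskeletal genes lay above in naïve mice. Only Vim, the intermediate filament of reactive astrocytes, lay above in EAE mice without mice 2 and 6 (2.63%, beside 1.49% of all ranked genes). It had 0, 1 and 0 footprints in naïve mice. Of 20 ranked hnRNP genes 0 separated in either direction over all footprints and 2 lay above in naïve mice over exonic ones, where 2.17% of all ranked genes did. Of 14 SR splicing factor genes only Srrm1 separated, above in EAE mice without mice 2 and 6 (7.14%, beside 1.49% of all ranked genes). Chromatin regulators and the ubiquitin pathway, with 39 and 24 ranked genes, and 17 genes of the respiratory chain had none. Of 14 ranked glycolysis genes Hk1 and Pfkp lay above in EAE mice without mice 2 and 6 (14.3%, beside 1.49% of all ranked genes). Of the 27 motor protein genes Kif26b lay above in naïve mice (3.7%, beside 3.16%).

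Mild and severe disease were also set against naïve mice in turn, with the same controls. In EAE mice 3, 4 and 7, scored at most 1.5, 361 genes (5.36%) lay below all naïve mice and 471 (7.0%) above. In EAE mice 1, 2, 5 and 6, scored at least 2.5, 637 (9.46%) lay below and 7 (0.104%) above, in a group in which 2 mice held fewer than 1000 footprints in genes. Complete separation is easier to reach with fewer mice, by chance as well. These shares therefore cannot be compared with each other or with those of all EAE mice. Of the 47 named genes and the share in genes, 0 of 48 differed between mild and severe EAE with an exact permutation p under 0.05, where 3 against 4 mice can reach 0.0286.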

How the data were processed

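hnRNP A1 CLIPseq was performed on spinal cord of single mice. The antibody clone is 9H10 by the labels and 4B10 by the methods, and the control IgG is IgG2a or IgG2b. Groups and scores were taken from the labels. The deposited files hold other values than counts, namely the chromosome, start and end of each footprint, with no score or strand. Per the labels and methods, the authors trimmed reads with bcl2fastq 2.19.0.316 and fastp, assembled each library with rnaSPAdes, placed the contigs on GRCm38 by spliced alignment (minimap2 2.17) and, with bedtools, removed sites of the input or pooled IgG and merged those that overlapped. A short or thinly sequenced RNA may not assemble, and a site weighs 1 whatever its reads.

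Of 136207 footprints, 568 lay off the chromosomes. Those on them were intersected with gene spans of GENCODE M21 (GRCm38) by at least 1 nt (bedtools 2.31.1), without strand. In all, 125162 touched a gene, and 12835 several, which counted in each. Genes footprinted in at least 3 mice were ranked. The groups were compared by complete separation, by exact permutation over 120 splits with Benjamini-Hochberg adjustment, and by voom in limma 3.58.1 with a prior count of 0.5. A midpoint outside all exons was called intronic. Named genes are protein-coding or long noncoding: the first 25 by gap above in naïve mice, all above in EAE mice, the first 10 gained in each direction without EAE mice 2 and 6, and list members. Some of these genes are not reported here. The ranking rule, the 38 lists (756 genes, 599 ranked) and the named-gene rule were chosen with earlier results of these data known. Alternatives were another unit, footprints of single or exonic or intronic position, a stricter filter, score groups and left-out mice. The rank test, the sums by gene span and the omission of chromosome 2 from 175 to 178 Mb, a region of multi-copy genes, were added after seeing the data. The scripts were tested on simulated data. Inputs, IgG and peak calls were not analysed here.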

Additional observations from a re-analysis of the deposited data

Results flagged for a closer look

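In 16 of 48 sets of values of the 7 EAE mice, 1 mouse stood farther from its nearest neighbour than Dixon's 95% limit allows. Chance alone passes that limit in about 1 of 20 sets, but the genes were chosen by their values, so this count cannot be set against it. Genes gained in the naïve direction without EAE mice 2 and 6, such as Lrrc4c and Lingo2, had 1 of these mice high by selection. EAE mouse 6 was that mouse in 9 sets, EAE mouse 2 in 4, EAE mouse 7 in 2 and EAE mouse 1 in 1, and the values below are footprints per 10000 in genes. EAE mouse 2 stood at 117.0 in Fn1 and in Lrrc4c, on 2 footprints each, and at 58.5 in Rpl32 and Pam, on 1 each. EAE mouse 6 stood at 33.2 in Fgf14, Camta1 and Gm49339, on 2 footprints each. On 1 footprint each it stood at 16.6 in Lingo2, Adgrb3, 1500004A13Rik, Mphosph8, Unc5d and Vmp1. EAE mouse 7 was the only EAE mouse with a Gas5 footprint, at 0.441, and the higher of 2 with one in Kcnj3, at 0.882. EAE mouse 1 stood at 26.3 in Fasn, on 6 footprints. The 13 sets led by EAE mice 2 and 6 rest on 1 or 2 footprints of the mice with the fewest footprints.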

How the results depend on the processing

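The counts of separated genes, 213 with naïve mice above and 5 with EAE mice above, moved as follows, the first number being naïve above. They were 607 and 1 as footprints per 1000000 mapped unique reads, 181 and 3 with footprints in a single gene, 146 and 3 with exonic and 81 and 1 with intronic midpoints, and 130 and 5 among genes footprinted in at least 5 mice. They were 224 and 100 without EAE mice 2 and 6, 251 and 344 without EAE mice 1, 2 and 6, 361 and 471 with scores up to 1.5, and 637 and 7 with scores from 2.5. By test they were 535 and 0 (exact permutation of means, unadjusted), 439 and 8 (exact permutation of ranks, unadjusted) and 0 and 0 (limma voom, adjusted). Leaving out 1 mouse at a time gave 214 to 417 and 5 to 23, the highest without naïve mouse 1 and EAE mouse 2, while 8 lay above in EAE without naïve mouse 3. A separation cannot be lost when a mouse is left out, so these counts say nothing of stability. With the replicate block over mice numbered 1 to 3, counts were 1123 and 32 and the share in genes differed by -3.563 percentage points. The numbers are not tied to a shared animal or batch by the labels, and same-numbered mice did not deviate together (r = -0.0654, 0.159 and 0.0331). The share in genes differed by -1.05 points, by 0.5498 without EAE mice 2 and 6, and by -1.781 to 0.2549 with 1 mouse left out. The share of genes over 500 kb kept its direction with exonic and with intronic midpoints, without EAE mice 2 and 6 and with any 1 mouse left out, the alternatives run for it.

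Mean differences turned sign in these cases, per 10000. Lrrc4c stood at -6.533 by covered nucleotides, -4.742 per 1000000 reads, -10.29 without EAE mice 2 and 6, -9.62 without 1, 2 and 6, -10.19 in mild EAE and -10.73 without mouse 2, with up to 8.76 without another mouse. Per 1000000 reads Pam stood at -0.2188, Rrbp1 at -0.5602, Mphosph8 at -0.4104, Unc5d at -0.2076 and Vmp1 at -0.3497. Mphosph8, Unc5d and Vmp1 stood at -0.9077, -0.4801 and -0.6919 without EAE mice 2 and 6, -0.8689, -0.4413 and -0.653 without 1, 2 and 6, -0.9162, -0.4886 and -0.7004 in mild EAE, and -0.9336, -0.506 and -0.7178 without mouse 6, with up to 1.835, 2.263 and 2.051 without another mouse. By exonic midpoints Rbfox1 stood at 0.4302, Kirrel3 at 0.06099, Magi2 at 0.9187, Lingo2 at 0.1543, Dlgap1 at 0.6446 and Unc5d at -0.5606, and genes of 30 to 100 kb at -2.298 points. By intronic midpoints Fn1 stood at -0.5068, Camta1 at 11.01 and Vmp1 at -1.82, and genes of 100 to 200 kb at 3.473 points. Vmp1 stood at -0.6337 with footprints in a single gene. The cause was not tested. Over named genes and span classes, 1054 values kept direction and side of the threshold, 71 passed it anew, 46 no longer did and 35 turned. EAE mice 2 and 6, with 171 and 602 footprints in genes, limit what their zeros show.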
